A study of Homo sapiens with 12 samples.

Results

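The effect of silencing ARNT in AsPC-1 cells kept at low oxygen was measured by RNA sequencing. The AsPC-1 line is an established one, derived from human pancreatic cancer. Of the 12 libraries in the study, 6 entered the comparison: hypoxia with a control siRNA (Hypoxia_siControl, replicates A, B and C) and hypoxia with an siRNA against ARNT (Hypoxia_siARNT, replicates A, B and C). They were chosen by their titles alone. Per the labels, wells were transfected with siScramble (called siControl in the titles) or siARNT with Lipofectamine RNAiMAX, and each was divided on the following day between a chamber at 1% O2, for 24 h, and normoxia. RNA was taken 48 h after transfection, so ARNT had been targeted for a day before oxygen fell. No group is free of transfection, and the labels do not say how many siRNA sequences siARNT holds, so an effect of the siRNA on other transcripts cannot be told apart from that of losing ARNT. The 6 normoxia libraries (Normoxia_siControl and Normoxia_siARNT) served only to ask whether an effect of siARNT differed between the oxygen levels. They share no library with the hypoxia comparison, but both oxygen levels were set up from the same transfections. Replicates are wells of one line, so p-values measure the spread between wells.

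ARNT, also called HIF-1β, is the constant partner of the oxygen-regulated HIF-1α and HIF-2α subunits. Prolyl hydroxylases mark these subunits for destruction through VHL while oxygen is present. At low oxygen the subunits persist, pair with ARNT and bind the letters ACGTG or GCGTG near genes for glucose use, pH control, vessel growth and collagen processing. The ligand-activated receptor AHR needs the same partner, and binds GCGTG within TNGCGTG near genes such as CYP1A1. One knockdown therefore takes away the partner of both families.

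The promoters below belong to the called genes with the largest falls in 3 lists described further on (glycolysis, other HIF targets and AHR targets). They are shown so that the site letters of HIF and AHR can be looked for in them. They are the 250 bases before and 50 after the annotated start from RefSeq (GRCh38.p14), 5′ to 3′ on the strand of the gene, with every ACGTG or GCGTG on either strand in capitals (CACGT and CACGC are the same letters on the other strand). SLC2A3 and CYP1B1 belong to the same group and are named only. ANGPTL4 and TIPARP, next in size in their families, were added after their values were seen, and the promoter of TIPARP is the first of 3 listed. PFKFB4 lies at chr3:48556754-48557053 (minus strand), TMEM45A at chr3:100492369-100492668 (plus), ANGPTL4 at chr19:8363905-8364204 (plus), CYP1A1 at chr15:74725479-74725778 (minus) and TIPARP at chr3:156674340-156674639 (plus).
PFKFB4: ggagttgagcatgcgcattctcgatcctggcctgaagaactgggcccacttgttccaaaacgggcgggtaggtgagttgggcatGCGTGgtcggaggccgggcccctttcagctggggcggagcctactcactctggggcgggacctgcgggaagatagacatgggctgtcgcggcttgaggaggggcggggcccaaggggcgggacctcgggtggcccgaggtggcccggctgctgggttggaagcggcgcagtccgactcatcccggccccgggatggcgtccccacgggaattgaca
TMEM45A: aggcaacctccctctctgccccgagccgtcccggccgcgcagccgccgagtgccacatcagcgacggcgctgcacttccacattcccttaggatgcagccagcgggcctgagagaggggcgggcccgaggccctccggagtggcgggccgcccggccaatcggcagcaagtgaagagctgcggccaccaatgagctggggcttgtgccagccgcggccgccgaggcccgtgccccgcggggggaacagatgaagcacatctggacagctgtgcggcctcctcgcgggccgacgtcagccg
ANGPTL4: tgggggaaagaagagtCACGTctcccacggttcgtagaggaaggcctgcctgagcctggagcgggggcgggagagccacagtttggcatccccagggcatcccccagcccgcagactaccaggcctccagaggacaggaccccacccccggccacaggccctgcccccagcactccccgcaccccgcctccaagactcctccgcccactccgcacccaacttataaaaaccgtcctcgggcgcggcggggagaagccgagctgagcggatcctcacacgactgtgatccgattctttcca
CYP1A1: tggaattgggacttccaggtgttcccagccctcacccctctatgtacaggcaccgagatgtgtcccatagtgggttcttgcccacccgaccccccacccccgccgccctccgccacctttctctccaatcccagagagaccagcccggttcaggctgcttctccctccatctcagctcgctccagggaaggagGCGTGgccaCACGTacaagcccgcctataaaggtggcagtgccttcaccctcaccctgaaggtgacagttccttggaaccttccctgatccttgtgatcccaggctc
TIPARP: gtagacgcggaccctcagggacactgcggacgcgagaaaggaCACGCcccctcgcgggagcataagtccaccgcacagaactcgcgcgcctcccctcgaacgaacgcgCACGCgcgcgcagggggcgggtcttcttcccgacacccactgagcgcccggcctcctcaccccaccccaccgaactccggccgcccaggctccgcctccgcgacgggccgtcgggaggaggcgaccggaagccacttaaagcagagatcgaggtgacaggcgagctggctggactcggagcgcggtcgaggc

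PFKFB4 holds 1 GCGTG, ANGPTL4 1 ACGTG, CYP1A1 1 of each and TIPARP 2 GCGTG in these windows, while TMEM45A holds neither. The longer AHR form TNGCGTG is in none of the windows shown, those of CYP1A1 and TIPARP included. These letters are common. Of 27305 promoters of the same length, 1 per gene symbol, 21.6% hold ACGTG, 36.3% hold GCGTG and 5.51% hold TNGCGTG, which contains GCGTG, on either strand. Either short form is in 48.4% of all promoters and in 62.4% of the 11031 that belong to genes tested here. Among the called genes of the lists described below, either form was in 76.9% of 13 glycolysis promoters, 82.4% of 17 promoters of other HIF targets, 90.0% of 10 promoters of AHR targets and 68.4% of 19 promoters of replication genes. It was in 52.8% of 267 promoters of genes that fell by a log2 fold change of at least 1 and in 53.4% of 174 that rose by as much. TNGCGTG was in 40% of the same promoters of AHR targets and in 7.19% of those of genes tested. It was in 0% of the glycolysis promoters and of those of other HIF targets, and in 5.26% of those of replication genes. A match is a description of the letters and not a site in use.

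In hypoxia, reads counted in genes came to between 38525512 (siARNT C) and 68879542 (siControl A) per library. Levels are given in CPM (counts divided by the library's total and brought to a common scale, here after TMM scaling of the totals), and genes are compared between libraries but not with each other, since CPM does not take length into account. The epithelial markers KRT8, KRT18, KRT19, EPCAM and CEACAM6 were high in all 6 libraries, whereas KRT7, a ductal keratin, stood at 1.17 to 2.09 CPM. The summed level of the 8 epithelial markers was 6308 to 7159 CPM in siControl and 5914 to 7168 CPM in siARNT. This sum does not show each member. MUC1 was carried by 1861 to 2824 unscaled reads per library in siControl and by 746 to 899 in siARNT. CDH1 was carried by 10721 to 16063 unscaled reads per library in siControl and by 9542 to 12503 in siARNT, and these ranges overlap. The totals of reads counted in genes were also lower in siARNT, at 38525512 to 53533696 per library against 46994792 to 68879542 in siControl. The lower CDH1 reads therefore do not by themselves show a fall. The 5 leukocyte markers summed to at most 1.01 CPM, with 2 of them at 0 in all 6 libraries, and the 3 endothelial markers found in the files to at most 0.966 CPM. Fibroblast markers summed to 568 to 594 CPM in siControl and 367 to 469 CPM in siARNT, nearly all of it the proteoglycan LUM, and without LUM to at most 1.67 CPM. In bulk RNA, fewer cells of a kind and less RNA per cell cannot be told apart.

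ARNT (ENSG00000143437.16) was lower in each siARNT library than in any control library. Its level was 70.3, 64.9 and 72.2 CPM in siControl A, B and C and 15.99, 15.8 and 14.1 CPM in siARNT A, B and C. The log2 fold change was -2.17 (SE 0.07, adjusted p 2.65e-09), and in normoxia it was -2.22 (adjusted p of the difference 0.782). Across the transcriptome, 16999 genes were tested and 4948 (29.1%) were called at an adjusted p under 0.05, 2452 as rises (14.4%) and 2496 as falls (14.7%). More falls than rises were large. In all, 481 genes (2.83%) fell and 275 (1.62%) rose by a log2 fold change of at least 1, and 71 fell and 17 rose by at least 2. The split depends on scaling. Scaling by total counts moved the median of all genes from 0.023 to 0.10 on the log2 scale and made 63.8% of calls rises, against 49.6% with the scaling used here. The groups did not overlap for 6844 genes (40.3%).

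**Figure D1:**
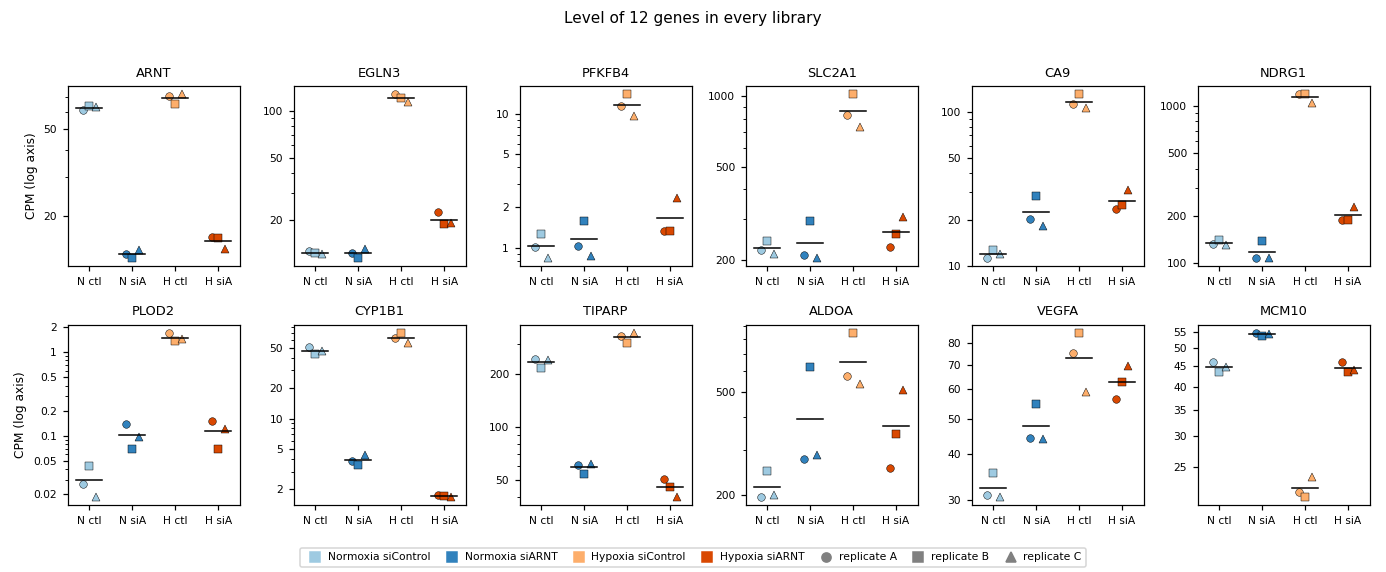
Level in CPM (log axis, its range set for each gene) of 12 genes in each of the 12 libraries. N and H are normoxia and hypoxia, ctl is siControl and siA is siARNT; marker shapes are replicates and bars are group means. ARNT is low in every siARNT library, EGLN3, NDRG1 and CA9 are high in the 3 hypoxia siControl libraries only, and the ranges of VEGFA overlap between the hypoxia groups.

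Among the genes of the oxygen-sensing machinery and its relatives, 6 of 19 tested rose (31.6%) and 7 fell (36.8%). Over all genes 14.4% rose and 14.7% fell. The median log2 fold change was -0.047 (0.031 with total-count scaling) against 0.023 for all genes. ARNT2 and HIF3A were below the count filter. No fall was called for the genes of the oxygen-regulated partners of ARNT. HIF1A stood at 108, 101 and 108 CPM in siControl and 114, 95.8 and 82.5 CPM in siARNT, with overlapping groups (log2 -0.12, adjusted p 0.456). EPAS1, which encodes HIF-2α, rose from 103, 106 and 96.3 to 124, 129.8 and 134 CPM (log2 0.35, SE 0.067, adjusted p 0.00212). AHR rose by 0.38 and the partner-sharing clock factor NPAS2 by 0.62.

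The prolyl hydroxylases, which are oxygen sensors, moved in different directions. EGLN3 (ENSG00000129521.9) was 128, 121 and 114 CPM in siControl and 22.4, 18.9 and 19.0 CPM in siARNT, a log2 fold change of -2.59 (SE 0.082, adjusted p 2.65e-09). Each siARNT library was still above the normoxia siControl mean of 12.4 CPM. EGLN1 fell from 152, 152 and 138 to 94.1, 85.0 and 86.5 CPM (log2 -0.74). EGLN2 rose by 0.51 at an adjusted p of 0.0445, a call that was lost in 5 of the 6 fits that left out 1 hypoxia library. The genes of the hydroxylase HIF1AN and of VHL did not pass the test (log2 0.046 and 0.16). Among the other bHLH-PAS members, the AHR repressor AHRR fell by 2.80, the low SIM2 by 0.96 and the clock gene PER2 by 0.36, while BMAL2 rose by 0.33. BMAL1, CLOCK and PER1 did not pass. The coactivators NCOA3 and NCOA1 changed by -0.34 and 0.31. Leaving out siControl B, siARNT A or siARNT B left 3 rises in this list. The calls on AHR, NCOA1, PER2, SIM2 and BMAL2 were each lost without at least 1 hypoxia library.

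Genes for glucose uptake and glycolysis fell and none rose. Of 25 tested, 14 fell (background 14.7%) and 11 did not pass, with a median log2 fold change of -0.75. The difference between the oxygen levels was called for 12 of them (background 4.69%), in each case with the lower value in hypoxia. The glucose transporter SLC2A1 was 827, 1021 and 735 CPM in siControl and 227, 258 and 304 CPM in siARNT, and the normoxia siControl mean was 224 CPM. Its log2 fold change was -1.71 (SE 0.16, adjusted p 1.79e-05) in hypoxia and 0.069 in normoxia. The related transporter SLC2A3 was carried by 34 to 115 reads in siControl libraries and by 0 to 6 reads in siARNT libraries (log2 -4.19, SE 0.57, adjusted p 0.0002).

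PFKFB4, which makes the activator of phosphofructokinase, was 11.4, 14.1 and 9.70 CPM in siControl and 1.32, 1.34 and 2.36 CPM in siARNT (log2 -2.82, SE 0.27, adjusted p 1.49e-05). The groups did not overlap, and the siARNT values were near the normoxia siControl mean of 1.037 CPM. Within the pathway itself, PGK1 (phosphoglycerate kinase) was 2199, 2239 and 1976 CPM in siControl and 799, 824 and 804 CPM in siARNT, a fall of 1.40. LDHA, which turns pyruvate to lactate, fell from 7133, 6827 and 6832 to 2943, 2555 and 2447 CPM, by 1.39. PDK1, which keeps pyruvate out of mitochondria, fell from 102, 94.1 and 104 to 40.9, 39.4 and 38.0 CPM, next to a normoxia siControl mean of 38.6 CPM. ENO2, ALDOC, PFKFB3, PGM1, HK2, GPI, PKM and PGAM1 fell by 0.69 (PKM) to 1.85 (ENO2).

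Several members that did not pass had widely spread values. ALDOA was 574, 844 and 536 CPM in siControl and 254, 345 and 509 CPM in siARNT (log2 -0.82, SE 0.33, adjusted p 0.086). Its siControl B and siARNT C were the highest of their groups, as were siControl B in 9 and siARNT C in 10 of the 11 genes that did not pass. GAPDH (-0.50), TPI1 (-0.52), PFKP (-0.34) and the lactate exporter SLC16A3 (-0.96) did not pass either, and with siARNT C left out these 4 and ALDOA were called as falls. HK1, ENO1, PFKL, GYS1, PFKM and PDK3 did not pass in that fit either. The part of these libraries in the wide spread was not tested.

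**Figure D2:**
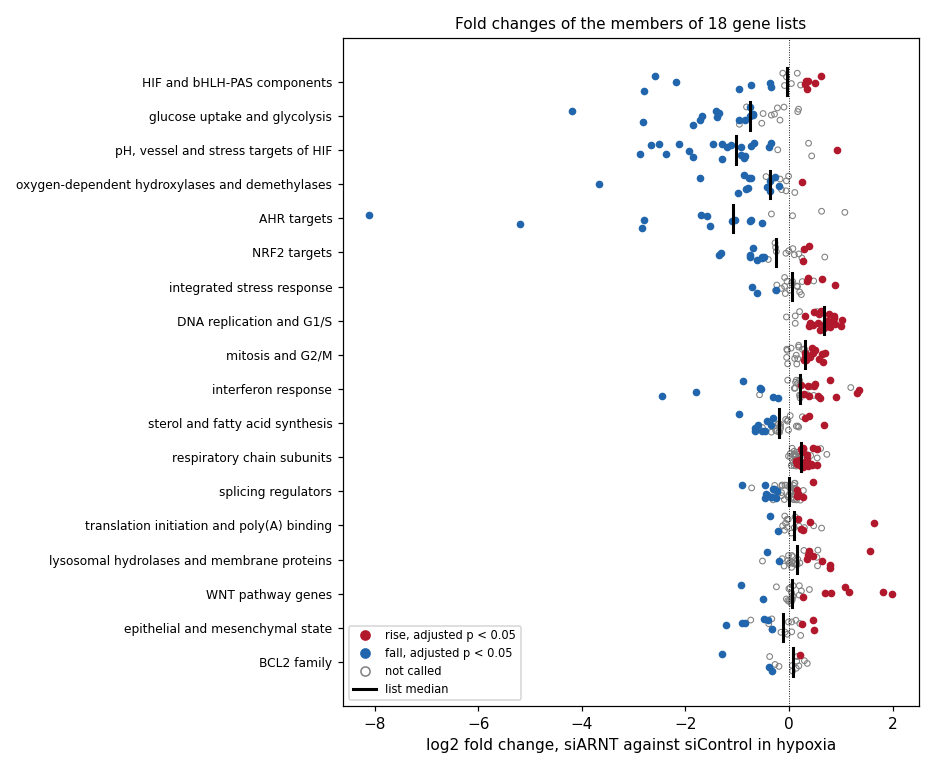
Log2 fold change of siARNT against siControl in hypoxia (horizontal axis) for each tested member of 18 gene lists (rows; the vertical scatter within a row has no meaning). Filled points passed an adjusted p under 0.05, open points did not, and bars are list medians. The medians of AHR targets and of the pH, vessel and stress targets lie near -1, and that of DNA replication genes at 0.68.

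The other HIF targets serve pH control, vessel growth and stress. Of 24 tested, 20 fell (83.3%, background 14.7%) and 1 rose, with a median of -1.02, and 17 differed between the oxygen levels (background 4.69%). CA9, a carbonic anhydrase that serves pH control, was 113, 129.9 and 105 CPM in siControl and 23.5, 24.9 and 31.1 CPM in siARNT (log2 -2.13, SE 0.16, adjusted p 3.17e-06). In normoxia its log2 fold change had the opposite sign, 0.90 (adjusted p 0.00346), and the mean in normoxia with siARNT was 22.4 CPM. NDRG1, a stress-induced gene, fell from 1199, 1192 and 1048 to 187, 188 and 228 CPM (log2 -2.51). ANGPTL4, a secreted regulator of lipid uptake, was 3.59, 5.41 and 3.39 CPM in siControl and 0.453, 0.656 and 0.852 CPM in siARNT (log2 -2.67), and TMEM45A, a membrane protein gene, 2.88, 2.60 and 2.17 and 0.453, 0.281 and 0.292 CPM (log2 -2.87).

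BNIP3L, a mitophagy receptor, fell from 632, 572 and 555 to 253, 236 and 233 CPM. ADM (adrenomedullin, a vessel-dilating peptide) fell by 1.86, DDIT4, an inhibitor of mTORC1, by 1.11, and the MYC antagonist MXI1 by 1.29. The long noncoding host of miR-210, MIR210HG, fell by 2.37. At the lower end WSB1, a ubiquitin ligase adaptor gene, fell by 0.38. Not every textbook target fell. VEGFA, the main vessel growth factor, was 75.1, 85.3 and 58.8 CPM in siControl and 56.4, 62.8 and 69.5 CPM in siARNT. The groups overlapped and the change did not pass (log2 -0.22, SE 0.13, adjusted p 0.26), while in normoxia VEGFA rose by 0.55. The carbonic anhydrase CA12 rose, from 8.72, 8.06 and 8.41 to 17.1, 15.5 and 15.5 CPM (log2 0.93, SE 0.083, adjusted p 7.61e-06), opposite to CA9. BHLHE41 did not pass (log2 0.38), and BNIP3 and STC2 were below the filter.

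Among enzymes that use oxygen to hydroxylate collagen or to demethylate histones and DNA, 13 of 22 fell (59.1%, background 14.7%) and 1 rose, with a median of -0.36. PLOD2, a collagen lysyl hydroxylase, was low in this line and almost lost: 63 to 113 reads per library in siControl and 3 to 8 reads in siARNT (log2 -3.66, SE 0.28, adjusted p 2.07e-06). P4HA1, a collagen prolyl hydroxylase subunit, fell from 629, 534 and 612 to 205, 174 and 164 CPM, yet remained above its normoxia siControl mean of 125 CPM. The histone demethylases KDM3A (-0.98), KDM5B (-0.83) and KDM6B (-0.77) fell, as did the DNA dioxygenases TET3 (-0.43) and TET2 (-0.36). KDM2B rose by 0.25 at an adjusted p of 0.036, a call lost in 7 of the alternatives tried. LOX was below the filter.

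AHR targets held the pair of called genes with the lowest fold changes of all, CYP1A1 and CYP1B1. Of 16 tested, 12 fell (75%, background 14.7%) and none rose, with a median of -1.07, the same with CYP1A1 set at the bound given next. CYP1A1, the classical AHR-induced monooxygenase, was carried by 384 to 545 reads in siControl libraries and by 1 or 2 reads in each siARNT library. Against a floor of 3 counts per library it was at least 130.4-fold lower. CYP1B1 (ENSG00000138061.7), a related monooxygenase, was 63.5, 70.7 and 55.8 CPM in siControl and 1.78, 1.73 and 1.68 CPM in siARNT (log2 -5.19, SE 0.13, adjusted p 9.2e-10). The repressors of the pathway fell as well. TIPARP, an ADP-ribosyltransferase that acts on AHR, was 329.6, 303 and 345 CPM in siControl and 50.7, 45.8 and 40.0 CPM in siARNT (log2 -2.84), and AHRR was 77.0, 77.8 and 75.1 and 11.0, 10.6 and 11.5 CPM. The retinal dehydrogenase ALDH1A3 fell from 1287, 1248 and 1368 to 388, 394 and 412 CPM (log2 -1.71). NQO1 fell less (-0.53). CYP2S1, LPCAT2 and MT2A did not pass (log2 -0.34, 0.63 and 1.08), nor did SLC7A5. MT2A was called as a rise in 6 of the 13 alternatives tried.

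Both target families were then compared with normoxia, where 3431 genes (20.2%) were called for siARNT. AHR targets fell at both oxygen levels, and 9 of the 16 were called as falls and 1, MT2A, as a rise in normoxia. The fall was larger in hypoxia for CYP1B1, TIPARP, AHRR and CYP1A1, with differences of -1.58, -0.85, -1.08 and -3.11 on the log2 scale (adjusted p of the difference 0.000235, 0.00399, 0.000335 and 0.00164). NQO1 did not show such a difference (0.041, adjusted p 0.75). Of the glycolysis genes, in contrast, 4 rose and 1 fell in normoxia, and of the other HIF targets 5 rose and 4 fell. For EGLN3 the difference was -2.57, and for NDRG1 -2.32. In all, 797 genes (4.69%) were called for a difference, a count that ran from 272 to 1188 when 1 library was left out.

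**Figure D3:**
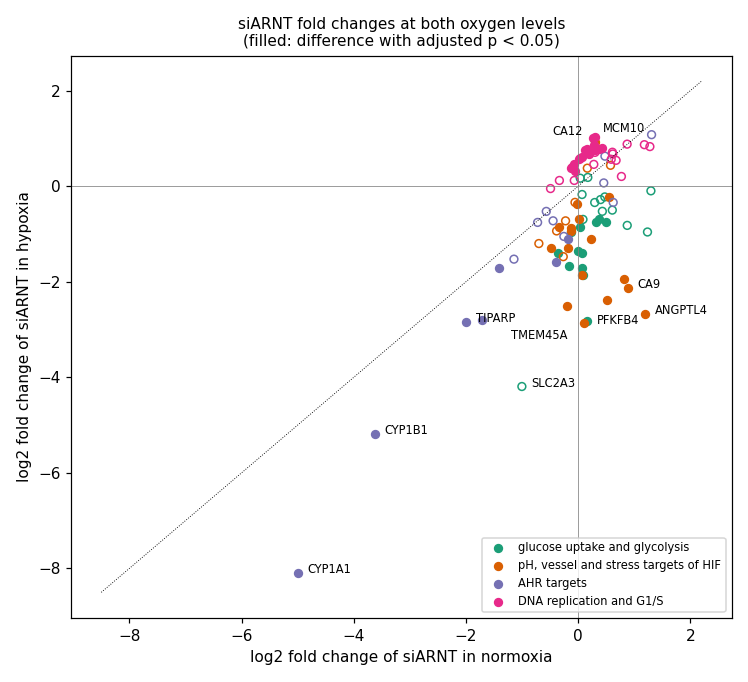
Log2 fold change of siARNT in normoxia (horizontal axis) and in hypoxia (vertical axis) for the tested members of 4 gene lists (colours), with the dotted line where both are equal. Filled points have an adjusted p under 0.05 for the difference. CYP1A1, CYP1B1 and TIPARP are low on both axes, while PFKFB4 and TMEM45A are low on the hypoxia axis with values of 0.17 and 0.10 in normoxia.

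The 10 largest falls and rises were taken among all called genes, known targets included, at 5 CPM or more on average whose groups did not overlap. Besides CYP1B1, TIPARP, AHRR, PFKFB4, EGLN3 and NDRG1, the falls held FAM3C, a secreted protein gene, and its processed pseudogene FAM3C2P. FAM3C was 1010.1, 1024 and 914 CPM in siControl and 163, 153 and 142 CPM in siARNT (log2 -2.69, SE 0.11, adjusted p 1.31e-08). It also fell in normoxia (-2.57), where the normoxia siControl mean was 976 CPM. Its difference between the oxygen levels was -0.11 (adjusted p 0.668). The alkaline phosphatase genes ALPG (-3.69) and ALPP (-2.75) completed the falls. ALPG and ALPP, and FAM3C and FAM3C2P, are near-identical copies. Reads without a unique alignment were not counted in genes, and other reads may fall on the wrong copy. The value of each is therefore uncertain.

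The largest rises were smaller than the largest falls. DACT1, an inhibitor of WNT signalling, was 5.31, 4.81 and 5.62 CPM in siControl and 21.5, 21.2 and 20.1 CPM in siARNT (log2 2.00, SE 0.089, adjusted p 3.53e-08). PABPC4, a poly(A)-binding protein gene, rose from 69.2, 66.3 and 71.0 to 219, 212 and 214 CPM (log2 1.64) and by 1.46 in normoxia. The lysosomal sulfatase ARSB rose from 6.88, 6.62 and 5.92 to 20.1, 19.8 and 17.6 CPM, and the dNTP hydrolase SAMHD1 from 5.02, 4.47 and 5.49 to 15.5, 13.7 and 12.2 CPM. TM4SF4, TOR3A, KIF21B, SYTL2, ZNF367 and GAS6 rose by 1.37 (GAS6) to 1.55 (TM4SF4).

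Genes of DNA replication and the G1/S transition rose together. Of 29 tested, 23 rose (background 14.4%) and none fell, with a median of 0.68. Leaving out a library gave 19 to 24 rises, and total-count scaling gave 24. The replication initiation factor MCM10 was 21.7, 21.1 and 23.7 CPM in siControl and 46.2, 43.7 and 44.1 CPM in siARNT (log2 1.01, SE 0.059, adjusted p 3.05e-07). The siARNT values were near the normoxia siControl mean of 44.9 CPM. Cyclin E2 (CCNE2) rose from 21.7, 20.2 and 21.8 to 46.0, 44.4 and 39.7 CPM (log2 1.03). MCM2 to MCM7, the subunits of the replicative helicase, were all called as rises, by 0.68 (MCM2) to 0.87 (MCM5). The MCM5 call was lost without siControl A or C or siARNT B or C (log2 0.59 to 0.92, adjusted p 0.0664 to 0.145). PCNA, the polymerase clamp, rose by 0.58. The difference between the oxygen levels was called for 16 of the 29 (background 4.69%), in each case with the higher value in hypoxia. In normoxia 11 rose and 2 fell, where 20.2% of all genes were called in either direction.

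Mitotic genes rose less. Of 28 tested, 14 rose (50%, background 14.4%) and none fell, with a median of 0.30, and only KIF23 differed between the oxygen levels (0.56). Leaving out a hypoxia library gave 10 to 17 rises, and total-count scaling gave 20. BUB1B, a spindle checkpoint kinase gene, was 48.3, 43.0 and 53.0 CPM in siControl and 84.9, 78.9 and 70.1 CPM in siARNT (log2 0.70). KIF23, a kinesin of cell division, rose by 0.67 and the proliferation marker MKI67 by 0.64. Cell numbers and cycle phases were not measured in these files.

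Subunits of the respiratory chain rose slightly, with 20 of 49 called as rises (40.8%, background 14.4%), none as falls and a median of 0.23. ATP5F1A, the alpha subunit of ATP synthase, was 389, 394 and 393 CPM in siControl and 573, 569 and 571 CPM in siARNT, with no overlap (log2 0.54, SE 0.044, adjusted p 3.97e-06). NDUFB9 of complex I rose by 0.54. The count was 31 with total-count scaling and 13 without siControl A.

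NRF2 targets, which serve redox defence, fell in 9 of 23 cases (39.1%) and rose in 3 (13.0%), with a median of -0.26. Over all genes 14.7% fell and 14.4% rose. In normoxia 10 of the 23 were called as falls and 2 as rises, where 20.2% of all genes were called in either direction. NFE2L2, which encodes NRF2 and is counted above among AHR targets, was 282, 258 and 279 CPM in siControl and 184, 163 and 138 CPM in siARNT (log2 -0.76, SE 0.098, adjusted p 0.000133). The aldo-keto reductases AKR1C1 and AKR1C2, close copies whose reads may fall on the wrong copy, fell by 1.32 and 1.35. FTH1, the ferritin heavy chain, fell by 0.75, and TXNRD1, a thioredoxin reductase, by 0.52. The exporter ABCC2 rose by 0.39 and ME1 by 0.30, the latter at an adjusted p of 0.0449, a call lost in 10 of the alternatives tried. Of the falls and rises in this list, 1 member, FTH1, was called for a difference between the oxygen levels.

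Sterol and fatty acid synthesis genes fell in 9 of 33 cases (27.3%) and rose in 3 (9.09%), with a median of -0.20. Over all genes 14.7% fell and 14.4% rose. The falls in this list were 6 without siARNT B and 13 with a replicate block. The sterol carrier STARD4 was 79.4, 81.9 and 75.3 CPM in siControl and 42.9, 40.8 and 37.9 CPM in siARNT (log2 -0.96). INSIG1, a sterol sensor, fell by 0.66, with -0.63 in normoxia. The desaturase FADS1 and the elongase ELOVL6 rose by 0.68 and 0.38.

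Interferon response genes split. Of 34 tested, 12 rose (35.3%) and 7 fell (20.6%), against 14.4% and 14.7% of all genes, with a median of 0.22. RSAD2 and OASL, antiviral effectors, rose by 1.35 and 1.31, and by 1.59 and 1.31 in normoxia. OASL was 44.0, 47.2 and 41.5 CPM in siControl and 98.4, 109 and 122 CPM in siARNT. The falls were led by the apolipoprotein L genes. APOL1 was 150.4, 152 and 145 CPM in siControl and 24.8, 27.3 and 29.97 CPM in siARNT (log2 -2.45, SE 0.098, adjusted p 1.4e-08), next to a normoxia siControl mean of 29.8 CPM. APOL2 fell by 1.79. In normoxia both were close to 0 (0.0074 and 0.095). APOL1, APOL2 and OAS1 were the 3 members called for a difference between the oxygen levels.

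In the integrated stress response, 4 of 23 genes rose (17.4%) and 3 fell (13.0%), shares near the 14.4% and 14.7% of all genes (median 0.054). The serine synthesis genes PSAT1 and PSPH rose by 0.90 and 0.64, and the transcription factor gene CEBPG and the tRNA ligase gene GARS1 fell by 0.72 and 0.63. Lysosomal genes rose in 8 of 33 cases (24.2%) and fell in 2 (6.06%; median 0.15). Apart from ARSB, the protease CTSB and the membrane protein LAMP1 each rose by 0.79, and CTSZ and NPC1 fell by 0.43 and 0.18. Total-count scaling gave 13 rises in this list. Among translation factors 5 of 21 rose (23.8%) and 2 fell (9.52%; median 0.10), led by PABPC4 and the cap-binding EIF4E (0.40), with EIF4A2 at -0.37 and EIF4B at -0.22. Without siControl B, 2 of these 5 rises were left.

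WNT pathway genes rose in 7 of 27 cases (25.9%) and fell in 2 (7.41%; median 0.062). After DACT1 came the transcription factor gene LEF1, which rose by 1.81 from a very low level, 0.0754, 0.107 and 0.0859 CPM in siControl and 0.302, 0.375 and 0.268 CPM in siARNT. That call was lost without siControl A (adjusted p 0.0534). The ligand gene WNT7B and the factor gene TCF7L2 fell by 0.92 and 0.50. Genes of the epithelial and mesenchymal states did not move as a block: 3 of 22 rose (13.6%) and 6 fell (27.3%; median -0.12). ESRP1, an epithelial splicing regulator, was 24.0, 22.5 and 22.4 CPM in siControl and 13.9, 11.4 and 11.2 CPM in siARNT (log2 -0.91, SE 0.10, adjusted p 4.5e-05). ZEB2, a mesenchymal factor at under 1 CPM, fell by 1.22, while TGFBI and the integrin ITGB1 rose by 0.49 and 0.46. In the BCL2 family 1 of 15 rose (6.67%) and 3 fell (20%), against 14.4% and 14.7% of all genes (median 0.069). Besides BNIP3L, BMF and BCL2L2 fell by 0.38 and 0.32, and BCL2L11 rose by 0.20. The BMF call was lost without siControl A or C or siARNT A or B, and that on BCL2L11 without siControl B or siARNT A.

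Splicing was measured as percent spliced in (PSI), given here as a fraction from 0 to 1. For skipped exons and retained introns it is the share of the signal that belongs to the included form. For mutually exclusive exons it is the share of the first exon, and for alternative splice sites that of the first listed site. That site gave the shorter form in SAT1, RSRP1 and RPS7 and the longer form in DMTF1. Of 38700 events tested, 82 (0.212%) were called, 21 with a higher PSI (0.0543%) and 61 with a lower PSI (0.158%), in 47 genes. At an unadjusted p under 0.05 there were 2670. The count was 29 without siARNT B and 32 without siControl A, and other tests gave 16 (limma) or 5 (with a negative binomial dispersion). A PSI difference of at least 0.1 was reached by 42 of the 82, and in 81 the groups did not overlap (12.4% of all events). Several events of a gene often share junction reads and are not independent. Skipped exons gave 61 of the calls among 18793 tested, and 51 of these had less inclusion under siARNT. Positions are as the files give them, in a build that they do not name.

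The regulators of splicing moved in both directions. Of 53 tested, 6 rose (11.3%) and 11 fell (20.8%), against 14.4% and 14.7% of all genes. The median was -0.0021 (0.080 with total-count scaling). The rises were 15 by total-count scaling and 2 without siControl A, siControl C or siARNT B. After ESRP1, the kinase CLK3 fell by 0.46, and CLK1 by 0.45. The RNA-binding protein gene ELAVL1 rose by 0.47 and the kinase gene SRPK2 by 0.27. The calls on CLK3 and SRPK2 were each lost in 4 of the 6 fits without 1 hypoxia library.

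RBM39, itself a splicing factor, combined a lower level (-0.31) with changed splicing. Its skipped exon of 73 bases (chromosome 20, 34328447 to 34328519, minus strand) was included at a PSI of 0.43, 0.401 and 0.392 in siControl and 0.251, 0.24 and 0.222 in siARNT (adjusted p 0.000279). The groups did not overlap, and the normoxia values were 0.435, 0.417 and 0.42 in siControl and 0.298, 0.278 and 0.305 in siARNT. MKI67 has a long skipped exon of 1080 bases (chromosome 10, 129913192 to 129914271, minus strand). Its PSI was 0.905, 0.858 and 0.853 in siControl and 0.596, 0.605 and 0.572 in siARNT, a difference of -0.281 (adjusted p 0.000279). In normoxia the difference was -0.175, and the test of a difference between oxygen levels did not pass (adjusted p 0.907).

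PRPF4B, a kinase of the spliceosome, had an exon of 204 bases (chromosome 6, 4062791 to 4062994) at 0.915, 0.839 and 0.963 in siControl and 0.622, 0.538 and 0.5 in siARNT (adjusted p 0.0383), from 50 reads or more per hypoxia library. In OPA1, a mitochondrial fusion gene, an exon of 111 bases (chromosome 3, 193343881 to 193343991) went the other way, from 0.307, 0.345 and 0.292 to 0.45, 0.503 and 0.504 (adjusted p 0.0179). The OPA1 call was lost without siControl A or C or siARNT B or C (adjusted p 0.0716 to 0.119). SAT1, a polyamine-catabolic enzyme gene, changed its choice of 5′ splice site (chromosome X, 23801917 to 23802520), with PSI 0.464, 0.48 and 0.414 in siControl and 0.643, 0.646 and 0.692 in siARNT (adjusted p 0.00901). The change in SAT1 was of like size in normoxia (0.192 against 0.207).

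ANKRD49 retained an intron of 1119 bases less often, at 0.569, 0.639 and 0.596 in siControl and 0.379, 0.303 and 0.361 in siARNT (adjusted p 0.0258). In RSRP1, an arginine- and serine-rich protein gene, a 3′ splice site 865 bases away gave PSI 0.545, 0.55 and 0.649 in siControl and 0.838, 0.814 and 0.808 in siARNT. DMTF1, a cyclin D-binding transcription factor gene, shifted a 3′ site by 39 bases, from 0.38, 0.434 and 0.412 to 0.228, 0.204 and 0.164. The calls on PRPF4B, ANKRD49 and DMTF1 were lost in each of the 6 fits without 1 hypoxia library, and that on RSRP1 in 5 of them, with the sign kept.

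In RPS7 and ARPC1B, an event set the hypoxia siControl libraries apart from the other 9. RPS7, a ribosomal protein gene, had a 3′ site 19 bases away (chromosome 2, 3627770 to 3627850) at PSI 0.872, 0.868 and 0.859 in hypoxia siControl and at 0 in the other 9 libraries (adjusted p 0.00901, and 0.051 without siControl A), from 34 reads or more per hypoxia library. This PSI compares only the alternative sites with each other, from 199 reads on average in hypoxia. An overlapping intron of 46 bases (3627743 to 3627788) was retained at 0.966, 0.974 and 0.968 in hypoxia siControl and at 1 in the other 9 libraries. Its signal in hypoxia was 9176 on average, so the alternative sites carried a small part of the RPS7 reads there. ARPC1B, an actin nucleation gene chosen after its values were seen, had an exon of 223 bases (chromosome 7, 98985662 to 98985884) included at a PSI of 1 in the 3 hypoxia siControl libraries. It stood at 0.983, 0.979 and 0.971 in hypoxia siARNT and at 0.976, 0.98 and 0.978 and 0.976, 0.982 and 0.979 in the normoxia groups. RNF103, a ubiquitin ligase gene, had a pair of mutually exclusive exons (103 bases; chromosome 2, 86842278 to 86842380) at 0.976, 0.905 and 0.957 in siControl and 0.568, 0.45 and 0.5 in siARNT, from 20 reads or more per hypoxia library, a call lost without siControl A (adjusted p 0.0993). In normoxia the order was opposite, with 0.627, 0.548 and 0.64 in siControl and 0.951, 1 and 0.947 in siARNT. The gene ENSG00000122497.13, which has no symbol in the tables used, was called although its groups overlapped, since siControl A stood at 1 and B and C at 0.344 and 0.262, with 0.918, 0.94 and 0.923 in siARNT.

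**Figure D4:**
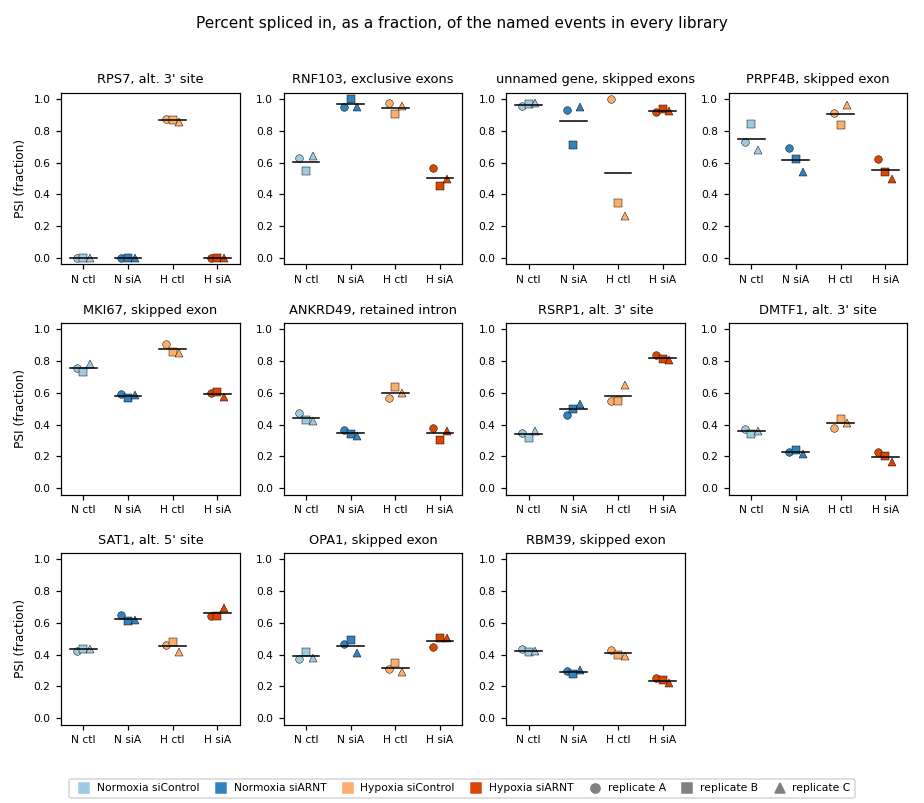
PSI, as a fraction, of the 11 named events in each of the 12 libraries; labels, marker shapes and bars are as in the plot of gene levels. RPS7 is above 0 only in the 3 hypoxia siControl libraries, RNF103 has opposite orders at the oxygen levels, and MKI67, RBM39 and SAT1 shift in the same direction at both.

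Of the 82 events, 40 were also called in normoxia, 38 of them in the same direction, and 8 events of the 38700 (0.0207%) were called for a difference between the oxygen levels. In normoxia 112 events (0.289%) were called. The PSI difference was larger in hypoxia for 73 of the 82, which were chosen there. Changed splicing and changed level coincided only in part. Of the 47 genes with a called event, 20 (42.6%) were also called for expression, against 36.7% of the 7307 genes with a tested event. VCAN, a matrix proteoglycan gene, fell by 1.10 and skipped its 2961-base exon more often, with PSI 0.43, 0.418 and 0.466 in siControl and 0.307, 0.295 and 0.282 in siARNT. CYP3A5, a drug-metabolising monooxygenase gene, fell by 0.89 and had 7 called events.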

How the data were processed

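The authors deposited counts of reads per gene for each library (the counter is HTSeq by the files' names, and its version and strand setting are not given in the sources used here). Per the labels, RNA was poly(A)-selected, made into stranded libraries and read on 3 lanes. The submitters' processing notes name Trimmomatic, STAR 2.4.2a and GRCh38.p10. Rows that name no gene held 22.7% to 25.2% of the counts of a library and were left out. Of 57820 gene IDs, 51996 had a symbol.

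The deposited event files hold, for 6 kinds of event, PSI as a fraction together with the junction counts behind it, and for intron retention a mean coverage signal of the intron. The recomputed PSI matched the deposited PSI within 0.0151 for 100% of values. Event positions did not match GRCh38, and the build is not given in the sources used here.

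Genes were tested with edgeR 4.0.16 in R 4.3.3 (quasi-likelihood, TMM scaling, filterByExpr, all 12 libraries, 1 term per group), with Benjamini-Hochberg adjusted p under 0.05 as a call; the SE was derived from the F statistic. DESeq2 1.42.0 was an alternative. Events were tested with edgeR on inclusion and exclusion counts with 1 term per sample, and with limma 3.58.1 on log2 ratios (offset 0.5) for intron retention, over events with at least 10 reads in each hypoxia library, 20 on average and 20 of the less used form. The event test used no negative binomial dispersion, a choice made on simulated data after the other setting had been seen on the real data. In simulated data the gene test recovered 76% of changes of 1 and 40% of changes of 0.5 on the log2 scale, and the event test 30% of changes of 2 in log2 odds.

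The comparison, the 18 gene lists and the tests were chosen with earlier results of these data known. The rule for named genes took all tested members of the list of HIF components, the 2 largest called rises and falls of each other list, the 10 largest of all genes at 5 CPM or more with no overlap, and 10 called events ranked by PSI difference plus those of listed genes of at least 0.1. It gave 86 genes, and 50 others with values were named after their values were seen. The values of 2 listed genes are not reported here. Further members named without comment are from the same lists.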

Additional observations from a re-analysis of the deposited data

Results flagged for a closer look

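For these named genes and 1 event, the effect of siARNT differed between hypoxia and normoxia by a test of the difference itself. Values are the log2 fold change in hypoxia minus that in normoxia, and the adjusted p from edgeR ran from 8.09e-07 (EGLN3) to 0.0497 (BMAL2).

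For HIF targets other than CA12, the log2 fold change was lower in hypoxia than in normoxia. In glucose use the difference was -2.99 for PFKFB4, -1.94 for ENO2, -1.78 for SLC2A1, -1.50 for ALDOC, -1.47 for PGK1, -1.34 for PDK1, -1.25 for GPI, -1.06 for HK2, -1.05 for PGAM1, -1.02 for LDHA, -0.88 for PGM1 and -0.84 for PFKFB3. In pH control, vessel growth and stress it was -3.87 for ANGPTL4, -3.02 for CA9, -2.97 for TMEM45A, -2.89 for MIR210HG, -2.32 for NDRG1, -1.93 for ADM, -1.35 for DDIT4, -1.10 for BNIP3L, -0.81 for MXI1, -0.77 for VEGFA and -0.35 for WSB1, and 0.63 for CA12 in the other direction. Among oxygen-dependent enzymes it was -5.48 for PLOD2, -2.57 for EGLN3, -1.31 for P4HA1, -0.77 for EGLN1 and -0.75 for KDM3A. Several of these genes were above 0 in normoxia, among them PLOD2 (1.81), ANGPTL4 (1.20), CA9 (0.90) and VEGFA (0.55), and the change of VEGFA in hypoxia did not pass, so the difference does not measure a fall in hypoxia alone.

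AHR targets gave -3.11 for CYP1A1, whose siARNT libraries are at the floor so that the value is no bound, -1.58 for CYP1B1, -1.08 for AHRR, -0.85 for TIPARP and -0.29 for ALDH1A3. Other falls were -2.45 for APOL1, -1.89 for APOL2, -2.22 for ALPG, -2.17 for ALPP, -0.49 for OAS1, -0.48 for FTH1 and -0.40 for CYP3A5. Differences above 0 were 1.08 for ARSB, 1.02 for FADS1, 0.97 for DACT1, 0.83 for SYTL2, 0.79 for SAMHD1, 0.75 for TOR3A, 0.70 for PSAT1, 0.57 for NPAS2, 0.52 for BMAL2 and 0.30 for ATP5F1A. In the cell cycle they were 0.74 for CCNE2, 0.74 for MCM10, 0.57 for PCNA, 0.56 for KIF23 and 0.49 for MCM4. The RNF103 event differed by -8.12 in log2 odds of inclusion (adjusted p 0.000713), from 30.5 reads on average.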

How the results depend on the processing

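The count of genes called in hypoxia was 4948, and 4235 to 5446 under other scalings, no filter, DESeq2, a replicate block or the 6 hypoxia samples alone. It was 3537 to 4519 with 1 hypoxia library left out, 2883 in the 6 hypoxia samples with a replicate block and 756 with a log2 limit of 1. Of the 4948, 57.7% (6 samples with block) to 98.3% (block) were called in the same direction, and 0 changed sign. The count for a difference between oxygen levels went from 797 to 1495 with total-count scaling, and from 272 to 1188 without 1 library. Events called were 82, against 16 with limma for all kinds, 41 in the 6 hypoxia samples, 214 with a replicate block, 42 with a PSI limit of 0.1, 29 to 66 without 1 library, and 5 with a negative binomial dispersion, a setting added after the data were seen. The cause of these shifts was not tested, apart from the stricter limits. The labels do not say whether replicate letters pair wells. Between the hypoxia groups, same-letter correlations of deviations were 0.18, -0.028 and -0.33, and siControl B went best with siARNT C (0.49). Between normoxia and hypoxia they were 0.072, 0.30 and 0.077 in siControl and 0.52, -0.028 and -0.43 in siARNT. Deviations from the mean of so few wells cannot decide whether letters pair. A pairing by letter was not used, so the test of the difference leaves out the division of wells between oxygen levels. The block gave 5425 genes, 960 for the difference.

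Of 136 named genes 120 were called, 101 of them in every alternative, and 0 of the called reversed. Calls were lost without siControl A for BMF, CLK3, EGLN2, EIF4B, KDM2B, LEF1, MCM5, ME1, NPC1 and SIM2, and without siControl B for BCL2L11, BMAL2, CLK3, EGLN2, KDM6B, ME1, NCOA1 and SRPK2. Without siControl C they were lost for BMAL2, BMF, EGLN2, EIF4B, KDM2B, MCM5, ME1 and SRPK2. Without siARNT A the lost calls were AHR, BCL2L11, BMAL2, BMF, CLK3, KDM2B, KDM6B, ME1, NCOA1, SIM2 and SRPK2. Without siARNT B they were BMAL2, BMF, CLK3, EGLN2, EIF4B, KDM2B, KDM6B, MCM5, ME1, NCOA1, NPC1, PER2, SIM2 and SRPK2, and without siARNT C EGLN2, MCM5 and NPC1. Adjusted p in these fits ran up to 0.182 (ME1 without siARNT A). Among genes that did not pass, the sign turned for BMAL1 (0.031 with total counts, -0.12 to 0.0075 without 1 library), HIF1AN (-0.029 to 0.070 without 1 library) and PER1 (0.0026 with total counts, -0.34 to 0.14 without 1 library). Calls were also gained in some of the 13 alternatives. They were gained in 6 for MT2A, 5 for TPI1 and 3 for GAPDH. ALDOA, CLOCK and PFKP gained a call in 2 each, and SLC16A3, VEGFA and VHL in 1 each. Of the 11 named events, 1 (MKI67) was called in every alternative and 0 reversed. In simulated data the event test found 7% of changes of 1 in log2 odds, so smaller shifts are mostly out of reach.

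Limits are few replicates of one line, 1 siRNA reagent per arm as labelled, and event reads that several events share.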

Other observations

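Long intergenic and antisense transcripts were called as falls at about the share of all genes and as rises at a lower share. Of 751 lincRNA genes tested, 117 fell (15.6%) and 31 rose (4.13%), with a median log2 fold change of -0.17, and of 888 antisense genes 123 fell (13.9%) and 29 rose (3.27%), with a median of -0.14. Over all genes tested 14.7% fell and 14.4% rose. Large falls had a higher share than in all genes. By a log2 fold change of at least 1, 7.06% of lincRNA and 4.73% of antisense genes fell, against 2.83% of all genes. As many as 0.533% and 1.01% rose by that much, against 1.62%. Of 12584 protein-coding genes 1999 fell (15.9%) and 2243 rose (17.8%), with a median of 0.040, and of 1306 processed pseudogenes 59 fell (4.52%) and 98 rose (7.504%), with a median of 0.22. These differences between gene types were not tested. The share of reads that the counter assigned to no feature was 8.36% to 8.91% in hypoxia siControl and 7.36% to 7.64% in hypoxia siARNT, without overlap, and its part in these counts was not tested. The strand setting of the counter is not given in the sources used here, so reads of a gene and its antisense partner cannot be told apart.

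Surface and matrix genes of the line itself also moved. CEACAM6, an epithelial adhesion gene, was 2507, 2359.8 and 2526 CPM in siControl and 1801, 1705 and 1471 CPM in siARNT (log2 -0.57, adjusted p 9.56e-05). LUM was 592, 577 and 566 CPM in siControl and 467, 404 and 365 CPM in siARNT (log2 -0.49, adjusted p 0.00258). Both were lower in each siARNT library than in any siControl library, and the other fibroblast markers stayed near 0 in both groups. Both genes were chosen after their values were seen.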
